A study of Mus musculus with 12 samples.

Results

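The regions described here are 603 accessible chromatin domains that were listed in mouse motor neuron cultures after induction of Hoxc9 and of Hoxc10, and in none of 4 other cultures of the same differentiation. They were defined by a rule on the lists themselves. A member had to be a domain of the iHoxc9 list at least 150 bp wide, on chromosomes 1 to 19, X or Y, that shared at least 1 bp with an iHoxc10 domain and none with a domain of embryoid bodies (EBs), progenitors, no Dox or iHoxc6 neurons. The rule kept 603 of 31062 iHoxc9 domains of that width (1.94%).

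ATAC-seq, which marks open DNA by transposon insertion, was run on 12 samples in 6 groups of 2. EBs before patterning (day 0) and progenitors after 2 days of 1 µM retinoic acid (RA) and 0.5 µM of the Hedgehog agonist SAG came from the parental line Ainv15(iCre). The iHoxc6, iHoxc9 and iHoxc10 neurons (day 4) had the same RA and SAG, carried a Flag-tagged, doxycycline (Dox)-inducible transgene for that Hox gene, and received 3 µg/mL Dox from day 2 for 48 h. The no Dox neurons (day 4) had RA and SAG without Dox and came from the iHoxc6 line, so the iHoxc9 and iHoxc10 lines had no uninduced control of their own here, and line and induced gene cannot be told apart.

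The authors deposited 1 list per group, made from both samples, with a start and an end per domain and no read count. No spread between replicates can therefore be given, read depth is unknown, and no p-value was computed. Intervals in parentheses are 95% Wilson intervals for shares and Newcombe intervals for differences between shares, and they cover the counting of domains only. The iHoxc9 and iHoxc10 lists were the shortest, with 63504 and 56232 domains on these chromosomes, against 87916 to 94875 in the 4 excluding lists. The no Dox file differs from the others in format and is named for a p-value threshold and for a day that its label does not give, so whether it was called with the same settings is not known. The absence of a member from that list is read with this limit. As a check on the cells, the promoters of 4 of 6 motor neuron genes (Mnx1, Isl1, Lhx3 and Slc18a3) held a domain in iHoxc9 and 5 of 6 in iHoxc10, which also held Chat. The EB and progenitor lists held 5 of 6 as well, so promoter domains of these genes did not separate motor neurons from earlier cells. Of 4 progenitor genes (Olig2, Nkx6-1, Pax6 and Sox1), 4 held one in iHoxc9 and 3 in iHoxc10. The EB, progenitor and iHoxc6 lists held 4 and no Dox 3, so these promoters did not separate the stages either. Of 4 genes that mark pluripotent cells (Pou5f1, Nanog, Zfp42 and Esrrb), none held one in any day 4 list, against 3 in EB, where the Esrrb promoter held none either. The cultures also contain interneurons per the study's methods, and a domain list cannot assign a region to either cell type.

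Hox proteins are homeodomain transcription factors that give cells along the body axis their position. In the spinal cord Hoxc6 marks brachial, Hoxc9 thoracic and Hoxc10 lumbar levels. Central Hox proteins such as HOXC6 prefer DNA with a TAAT core, whereas posterior ones such as HOXC9 and HOXC10 prefer TTTAT, which reads ATAAA on the other strand. Another posterior core reads GTAAA, or TTTAC on the other strand, which the paper reports as a distinct motif of HOXC13. With the cofactor PBX, posterior Hox proteins recognise the composite string TGATTTAT.

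The central 200 bp of 9 of these domains are printed below from the RefSeq copy of GRCm38.p6, plus strand, 5′ to 3′, in lower case with each ATAAA or TTTAT in capitals. They were chosen to show the domains with the most ATAAA matches that are also wide (Kcna4 and 1700003H04Rik), domains at genes of limb-level motor neurons, Hox genes and Hox cofactors (Aldh1a2, Hoxc6, Foxp1 and Meis2), domains at axon guidance genes (Slit3 and Epha4), and a wide domain without the string (1190002N15Rik). The windows are centred on the iHoxc9 domains: the 1190002N15Rik window lies outside the stretch shared with the iHoxc10 domain, and the Kcna4, Hoxc6, Foxp1 and Slit3 windows overlap it only in part, Kcna4 the least. Each is named by the protein-coding gene with the nearest transcription start site (TSS).
Kcna4 (chr2:108101556-108101755): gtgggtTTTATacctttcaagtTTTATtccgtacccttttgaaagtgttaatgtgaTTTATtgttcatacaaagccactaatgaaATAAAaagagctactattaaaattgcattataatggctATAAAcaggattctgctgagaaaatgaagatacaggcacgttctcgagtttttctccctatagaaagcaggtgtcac
1700003H04Rik (chr3:124924267-124924466): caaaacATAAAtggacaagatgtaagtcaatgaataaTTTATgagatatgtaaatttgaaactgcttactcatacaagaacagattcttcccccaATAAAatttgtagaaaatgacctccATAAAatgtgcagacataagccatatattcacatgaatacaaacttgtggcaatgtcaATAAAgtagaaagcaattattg
Aldh1a2 (chr9:71217460-71217659): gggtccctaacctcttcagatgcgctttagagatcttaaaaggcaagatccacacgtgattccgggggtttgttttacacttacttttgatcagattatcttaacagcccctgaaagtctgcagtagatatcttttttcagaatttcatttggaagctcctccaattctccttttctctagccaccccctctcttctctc
Hoxc6 (chr15:102998061-102998260): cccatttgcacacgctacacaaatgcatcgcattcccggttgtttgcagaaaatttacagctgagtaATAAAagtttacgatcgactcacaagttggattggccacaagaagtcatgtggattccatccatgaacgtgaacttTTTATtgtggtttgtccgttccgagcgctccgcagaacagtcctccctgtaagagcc
Foxp1 (chr6:99019850-99020049): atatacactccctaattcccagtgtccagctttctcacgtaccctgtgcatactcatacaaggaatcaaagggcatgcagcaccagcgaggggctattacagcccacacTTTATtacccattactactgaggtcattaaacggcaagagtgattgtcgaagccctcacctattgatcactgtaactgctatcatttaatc
Meis2 (chr2:115943184-115943383): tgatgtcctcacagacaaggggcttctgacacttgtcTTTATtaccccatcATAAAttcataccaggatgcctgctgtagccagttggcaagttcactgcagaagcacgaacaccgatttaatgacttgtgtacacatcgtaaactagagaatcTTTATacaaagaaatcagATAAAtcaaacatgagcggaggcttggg
Slit3 (chr11:35334446-35334645): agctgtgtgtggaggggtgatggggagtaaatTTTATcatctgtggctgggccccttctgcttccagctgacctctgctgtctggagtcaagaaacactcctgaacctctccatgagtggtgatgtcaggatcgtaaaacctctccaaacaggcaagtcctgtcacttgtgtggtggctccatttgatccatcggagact
Epha4 (chr1:77255217-77255416): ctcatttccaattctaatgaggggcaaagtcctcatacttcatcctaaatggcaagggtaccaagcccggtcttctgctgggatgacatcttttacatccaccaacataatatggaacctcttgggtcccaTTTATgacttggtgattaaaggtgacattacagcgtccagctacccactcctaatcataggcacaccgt
1190002N15Rik (chr9:94239880-94240079): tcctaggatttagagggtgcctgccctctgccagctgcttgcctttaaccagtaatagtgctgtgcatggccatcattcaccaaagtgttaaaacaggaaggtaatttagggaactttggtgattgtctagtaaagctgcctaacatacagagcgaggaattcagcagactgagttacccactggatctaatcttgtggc
The Kcna4 and 1700003H04Rik windows held 5 matches each, Meis2 held 4, Hoxc6 held 2, Foxp1, Slit3 and Epha4 held 1, and Aldh1a2 and 1190002N15Rik held none. The composite TGATTTAT occurred once in the Kcna4 window and once in the Meis2 window. The string CGTAAA occurred once each in the Hoxc6, Meis2 and Slit3 windows.

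The lists narrowed the set in steps. Of the 31062 iHoxc9 domains, 87.0% were also listed in iHoxc10. Of the 2201 that none of the 4 excluding lists held, iHoxc10 held 27.4%, and these are the 603 regions. Among domains shared by iHoxc9 and iHoxc10, the iHoxc6 list was the sole reason for removal of 419, the no Dox list of 221, the progenitor list of 46 and the EB list of 24. The 419 regions shared by all 3 induced lists, the 1598 iHoxc9 domains held by no other list ("iHoxc9 alone") and the 950 iHoxc10 domains of at least 150 bp held by no other list ("iHoxc10 alone") serve below as the most similar sets. A contrasting set is the 25258 iHoxc9 domains also listed in progenitors.

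Absence from a list meant only that no domain was called there. The median gap from a member to the nearest domain was 9.34 kb in iHoxc6, 9.73 kb in no Dox, 10.7 kb in progenitors and 12 kb in EBs. However, 95 members (15.8%, 13.1 to 18.9) lay within 500 bp of a domain of at least 1 of these lists, and the smallest gap was 2 bp. The rule tested the iHoxc9 domain, and for 25 members the overlapping iHoxc10 domain itself met a domain of an excluding list. For the other 578 (95.9%, 94.0 to 97.2) it met none. With narrow domains of the excluding lists set aside, so that those lists held only domains of 150 bp or more, the rule kept 1364 regions.

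The 603 domains were of moderate width in both lists. In iHoxc9 they ranged from 150 to 1018 bp with a median of 271 bp, and the iHoxc10 domains they met ranged from 16 to 1816 bp with a median of 196 bp. The widths came from the lists that chose the members, and the minimum was set on iHoxc9 alone. With the rule mirrored, 577 iHoxc10 domains of at least 150 bp had a median of 245 bp and met iHoxc9 domains with a median of 208 bp. Taking the list with the minimum as given, the members were wider in iHoxc9 in 73.5% of pairs, and the mirrored regions in 38%. In the 357 members at least 150 bp wide in both lists the medians were 273 bp in iHoxc9 and 269 bp in iHoxc10, and 197 (55.2%, 49.996 to 60.3) were wider in iHoxc9. The order of the lists by width thus turned with the list on which the minimum was set.

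**Figure D1:**
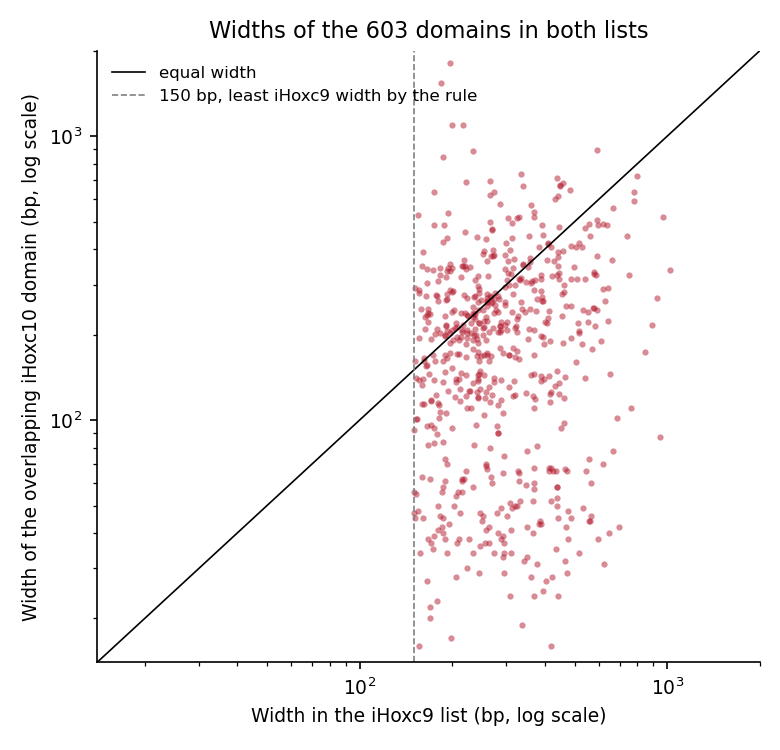
Width of each of the 603 domains in the iHoxc9 list (horizontal axis, bp, log scale) against the width of the iHoxc10 domain it overlaps most (vertical axis, bp, log scale). The solid line marks equal width and the dashed line the 150 bp minimum that the rule set on iHoxc9, to the left of which no point can lie. Points below the line are wider in iHoxc9, and the 87 iHoxc10 domains under 50 bp form the lower part of the cloud.

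The calls from the 2 lists were close to each other in position. The centres lay within 100 bp of each other for 449 members, 331 members were covered over at least 50% of their width and 69 lay wholly inside the iHoxc10 domain. For 87 members the iHoxc10 domain was under 50 bp, and 19 members shared less than 20 bp with it. At 500 bp or wider there were 66 members, of which 7 were also that wide in iHoxc10. At the width limit, the domains just inside it had 150 bp (near Gm45261, Nhsl1 and Akap6) with 47, 56 and 92 bp in iHoxc10. Just outside it, domains near Erbb4 and Epha5 had 149 bp, with 316 and 202 bp in iHoxc10.

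The domains lay far from promoters. Only 6 of 603 (0.995%, 0.457 to 2.15) reached within 1 kb of a protein-coding TSS. A further 16 (2.65%) were in exons, 239 (39.6%, 35.8 to 43.6) in introns and 342 (56.7%, 52.7 to 60.6) between genes. Of all iHoxc9 domains, 36.1% were at promoters, 8.83% in exons, 22.3% in introns and 32.8% between genes. In iHoxc9 alone these shares were 0.751%, 2.38%, 37.2% and 59.6%. The members' median distance to a TSS was 123 kb. Of the members, 56.1% (52.1 to 59.96) were over 100 kb away, against 23.7% of all iHoxc9 domains. The domains also listed in progenitors had a median distance of 4.09 kb, with 44.0% at promoters. The median was 141 kb in iHoxc9 alone and 102 kb in the domains of all 3 induced lists, and the members lay between them. Of the base pairs in the central 200 bp, 8.23% on average were soft-masked as repeats, against 29.7% in windows 5 kb to either side.

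**Figure D2:**
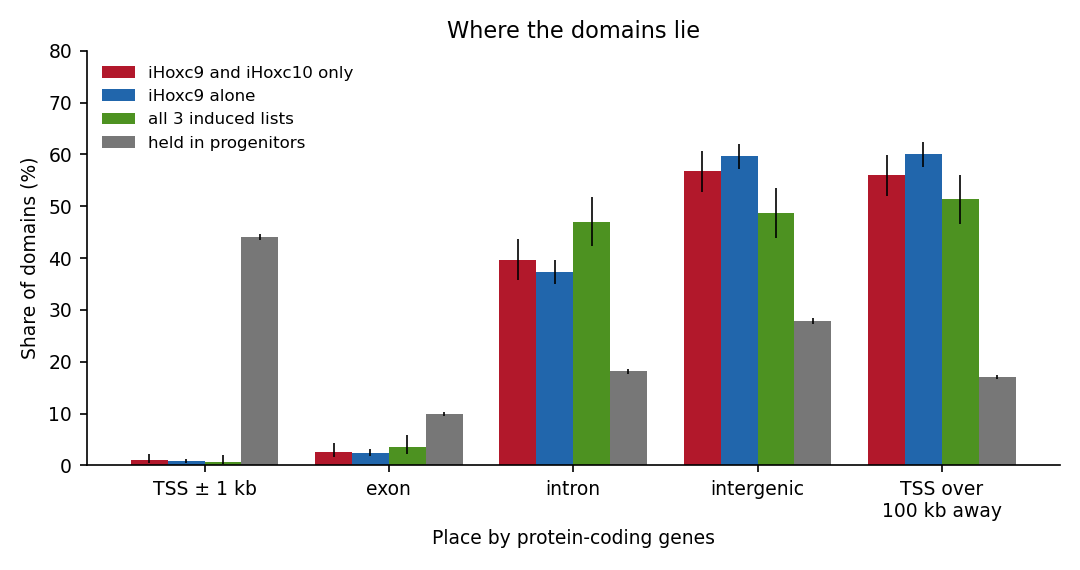
Share of domains (percent) at promoters (TSS ± 1 kb), in exons, in introns, between genes, and over 100 kb from a protein-coding TSS, for the 603 members, iHoxc9 alone, all 3 induced lists and domains also listed in progenitors. Error bars are 95% Wilson intervals. The 3 sets absent from uninduced lists have about 1% or less at promoters, against 44.0% of the progenitor-held domains.

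The 6 promoter members were at Hoxc6, Sox7, Acod1, Bcar3, Stra6l and Olfr875. At Sox7, which encodes an endodermal and vascular transcription factor, the 160 bp iHoxc9 domain shared 13 bp with a 349 bp iHoxc10 domain, and domains of all 4 excluding lists lay 25 to 161 bp away. The Bcar3 member also had domains of all 4 excluding lists within 257 bp. At Acod1, which encodes the enzyme that makes itaconate, the widths were 486 bp in iHoxc9 and 313 bp in iHoxc10, and the nearest excluding domain was 1591 bp away. The promoter members thus differed in how isolated they were.

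The posterior Hox core was more common in the domains than in their surroundings. ATAAA was found in the central 200 bp of 474 of 603 domains (78.6%, 75.2 to 81.7), against 56.0% of windows of the same length 5 kb to either side and 32.4% (31.9 to 32.9) of all 31062 iHoxc9 domains. The latter had a median GC content of 55%, against 44% in the members, and weighted to the GC content of the members their share was 59.95%, 18.7 points below the members (15.4 to 21.9). Its density was 7.99 matches per kb, 1.64 times that of the windows 5 kb away (1.51 to 1.79, counting of matches only). There were 129 domains with no match, 185 with 1, 161 with 2 and 128 with 3 or more. The central core TAAT was present in more domains (85.1%) but was also common 5 kb away (75.9%), at a density ratio of 1.20. Of all iHoxc9 domains, 46.4% held TAAT. Weighted to the GC content of the members that share was 75.3%, 9.75 points below the members (6.95 to 12.6).

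Longer strings that contain the posterior core were rarer and more sharply concentrated. TTTATGG occurred in 119 domains (19.7%, 16.8 to 23.1) at 5.91 times the density 5 kb away, and every match of it is also a match to the core. It was in 4.57% of all iHoxc9 domains, or 8.98% weighted to the GC content of the members. In iHoxc9 alone it was in 20.3% (ratio 6.39) and in all 3 induced lists in 16.7% (ratio 9.75). The intervals of the members' differences from these 2 sets included 0 (-4.22 to 3.26 and -1.86 to 7.72 points). The PBX composite TGATTTAT occurred in 42 domains (6.97%, 5.19 to 9.28) against 1.16% of windows 5 kb away, a density ratio of 6.0. It was in 2.41% of all iHoxc9 domains, or 4.91% weighted to the GC content of the members. The interval of the latter difference included 0 (-0.00106 to 4.11 points). The E-box CAGCTG, a string bound by basic helix-loop-helix factors, occurred in 105 domains (17.4%, 14.6 to 20.6) at a ratio of 2.91. That share was near the 16.8% of all iHoxc9 domains. CAGCTG was in 15.6% of iHoxc9 alone and 22.0% of all 3 induced lists. TGACAG, the string of MEIS cofactors, was in 16.4% of domains, in 11.7% of windows 5 kb away and in 14.3% of all iHoxc9 domains.

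**Figure D3:**
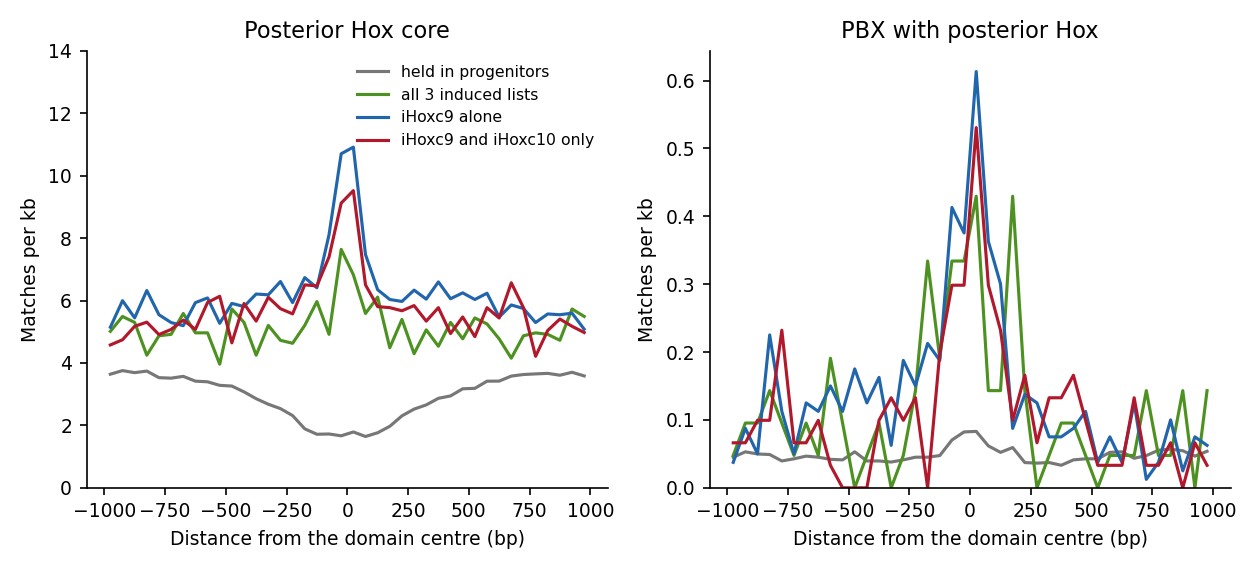
Matches per kb to the posterior Hox core ATAAA and to the composite TGATTTAT (vertical axes, both strands, bins of 50 bp) by distance from the domain centre (horizontal axis, bp), for the 603 domains, iHoxc9 alone, all 3 induced lists and domains also listed in progenitors. In the 603 domains ATAAA reaches 9.52 matches per kb in the bin just to the right of the centre. In that bin iHoxc9 alone has 10.9, all 3 induced lists 6.83 and the progenitor-held domains, in a broad trough, 1.79.

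Compared with the most similar sets, the 603 domains stood between iHoxc9 alone and all 3 induced lists in ATAAA as counted. The share was 84.5% (82.6 to 86.2) in iHoxc9 alone, so the members were lower by 5.87 percentage points (interval of the difference, members minus iHoxc9 alone, -9.72 to -2.27). It was 70.9% (66.4 to 75.03) in all 3 induced lists, and the members were higher by 7.72 points (2.33 to 13.2). Base composition moved with this order: the median GC content of the central 200 bp was 41.5% in iHoxc9 alone, 44% in the members and 45.5% in all 3. When the other sets were weighted to the GC content of the members, the shares became 81.2% in iHoxc9 alone and 74.0% in all 3, against 78.6%. The differences became smaller, and their normal intervals included 0 in both cases (members minus iHoxc9 alone -6.41 to 1.21, members minus all 3 -0.495 to 9.74 points).

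The iHoxc10-alone domains differed from the members in the posterior strings. ATAAA was in 52.2% (49.0 to 55.4) of them, 26.4 points lower than in the members (21.7 to 30.8), and at 1.03 times the density 5 kb away. TTTATGG was in 5.79% (4.47 to 7.46), 13.9 points lower (10.5 to 17.6). Longer posterior strings were denser in iHoxc10 alone than 5 kb away, at ratios of 3.33 for TGATTTAT, 3.05 for CGTAAA, 2.14 for TTTATGG and 1.45 for CATAAA. Their median GC content was 46.8%, and weighted to the GC content of the members the ATAAA share was 59.4%, 19.3 points below the members (14.8 to 23.8). These windows were centred on iHoxc10 domains, whereas those of the members were centred on iHoxc9 domains. With the members centred on their iHoxc10 domains, 76.9% held ATAAA, within the interval around 78.6%.

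The other core that posterior Hox proteins accept, GTAAA, was in 298 members (49.4%, 45.4 to 53.4). Of all iHoxc9 domains 21.7% held GTAAA, or 35.4% weighted to the GC content of the members. The share was 47.0% in iHoxc9 alone, a difference whose interval included 0 (-2.25 to 7.09 points), and 37.9% in all 3 induced lists, 11.5 points lower than in the members (5.29 to 17.5). In iHoxc10 alone it was 30.4%. For TGATTTAT and TAAT as counted, the intervals of the differences from iHoxc9 alone and from all 3 lists included 0. Weighted to the GC content of the members, TAAT was 3.87 points higher in the members than in iHoxc9 alone (0.432 to 7.31). Against all 3 lists its weighted interval included 0 (-7.04 to 1.01). The TGATTTAT differences were -1.11 points (-3.39 to 1.52) against iHoxc9 alone and 1.24 points (-1.95 to 4.2) against all 3.

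All 6-letter strings with at least 50 matches in the members were then ranked by their density relative to the windows 5 kb away, which gave 1097 strings. The first was CGTAAA, with 52 matches at a ratio of 6.12, followed by GATTTA (3.75), CATAAA (3.68), CCATAA (3.17) and CAGCTG (2.91). GATTTA lies within the PBX composite, and CATAAA holds the posterior core. Of the first 20 strings, only 1 held ATAAA and 3 held TTAT on either strand. The ranking was not matched for GC content, whose median was 44% in the members and 41.25% in the windows 5 kb away. The string AGGTCA, the half-site of nuclear receptors such as the RA receptors, was 11th at 2.21. The ranking was made on the members, so it describes them and carries no test.

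CGTAAA and AGGTCA were compared with the other sets after their rank was known. CGTAAA was in 50 members (8.29%, 6.35 to 10.8), in 5.82% of iHoxc9 alone (2.47 points lower, 0.155 to 5.16), in 5.49% of all 3 (2.8 points lower, -0.455 to 5.86) and in 2.95% of iHoxc10 alone. Weighted to the GC content of the members, iHoxc9 alone had 6.28%. The interval of that difference (2.01 points) included 0 (-0.538 to 4.57). Of all iHoxc9 domains 2.46% held CGTAAA, or 3.20% weighted to the GC content of the members. AGGTCA was in 138 members (22.9%, 19.7 to 26.4), against 15.1% of iHoxc9 alone. The difference was 7.74 points (4.07 to 11.6), or 7.1 points (3.23 to 11.0) weighted to the GC content of the members. AGGTCA was in 21.7% of all 3 lists and 22.3% of iHoxc10 alone, with intervals of the difference that included 0. Of all iHoxc9 domains 11.6% held AGGTCA, or 14.9% weighted to the GC content of the members. Both strings were chosen with such values in view, so these comparisons are descriptions.

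**Figure D4:**
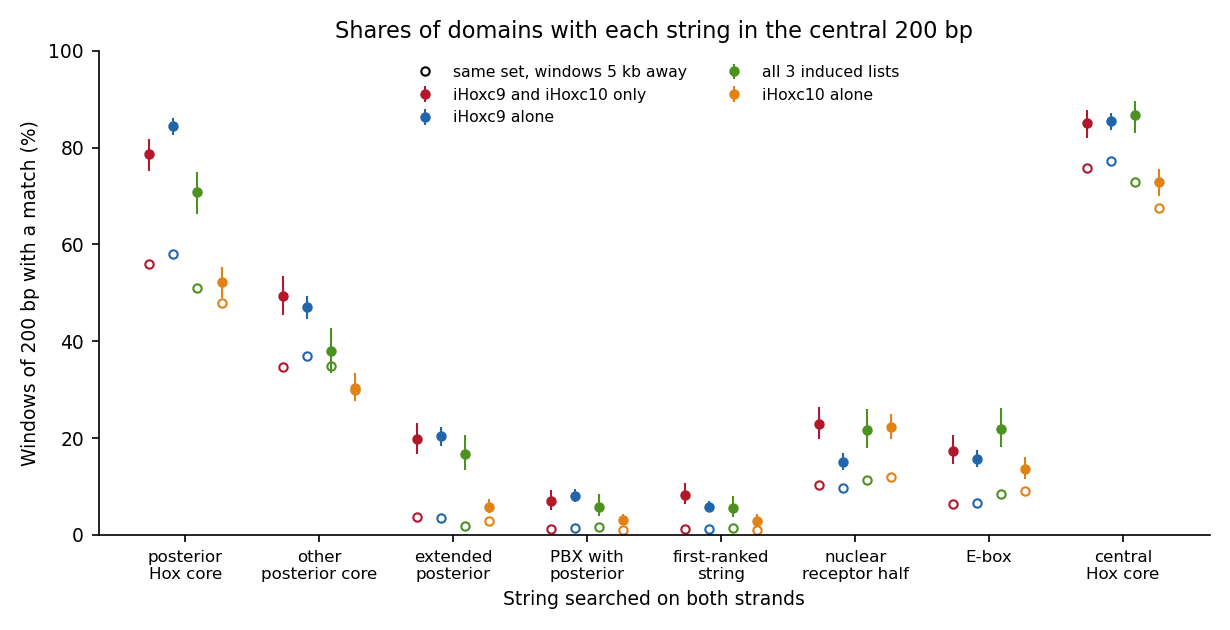
Share of central 200 bp windows (percent, vertical axis) with each of 8 strings, for the 603 domains, iHoxc9 alone, all 3 induced lists and iHoxc10 alone. The strings are the posterior core ATAAA, the other posterior core GTAAA, the extended TTTATGG, the composite TGATTTAT, the first-ranked CGTAAA, the receptor half-site AGGTCA, the E-box CAGCTG and the central core TAAT. Filled points have 95% Wilson intervals and open points are windows 5 kb away in the same set. The posterior strings lie lowest in iHoxc10 alone.

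The match to the posterior core varied little with how wide a region was called in iHoxc10. The share with ATAAA was 78.2% (68.4 to 85.5) where the iHoxc10 domain was under 50 bp, 82.4% from 50 to under 150 bp, 79.4% from 150 to under 250 bp, 74.7% from 250 to under 500 bp and 77.8% (61.9 to 88.3) at 500 bp or more. By iHoxc9 width it was 73.7% (67.9 to 78.8) from 150 to under 250 bp, 82.8% (78.0 to 86.7) from 250 to under 500 bp and 78.8% (67.5 to 86.9) at 500 bp or more. It fell with GC content, from 89.7% (83.9 to 93.5) under 40% GC to 66.7% (56.9 to 75.2) at 50% GC or more. In the domains also listed in progenitors it was 77.3% under 40% GC, 63.7% from 40 to under 45%, 46.3% from 45 to under 50% and 11.5% at 50% GC or more. Weighted to the GC content of the members, their share was 54.1%, against 23.5% as counted, and the members were 24.5 points higher than the weighted share (normal interval 21.2 to 27.9).

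The 5 widest members were near Ndufa4, Flrt2, Kcna4, Clstn2 and 1190002N15Rik. The widest (1018 bp, chr6:11593573-11594590) was intergenic, 313 kb from the Ndufa4 TSS, with a 338 bp iHoxc10 domain and 2 ATAAA matches. The Flrt2 member (969 bp) lay 1131 kb from the TSS of that axonal adhesion gene, met 521 bp in iHoxc10 and held 3 matches. The Kcna4 member (951 bp), near a voltage-gated potassium channel gene, met only 87 bp in iHoxc10. The Clstn2 member (929 bp) was in an intron of that calsyntenin gene with 270 bp in iHoxc10, and the 1190002N15Rik member (892 bp) met 216 bp. All 5 were wider in iHoxc9, the list in which they were ranked.

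The highest number of ATAAA matches in the central 200 bp was 5, held by 21 members. The 5 widest of these were near Kcna4, Ppp2r2b, Kcnt2, 1700003H04Rik and Sncaip. Kcnt2, a sodium-activated potassium channel gene, held its member in an intron (556 bp in iHoxc9, 44 bp in iHoxc10). The 1700003H04Rik member had 516 bp in iHoxc9 and 421 bp in iHoxc10, and the latter lay wholly inside the former. Its GC content was 30% and that of the Kcnt2 member 41.5%.

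Genes of motor columns and pools that divide limb-level from thoracic motor neurons were examined by a list of 20 genes. Of these, 5 (Foxp1, Aldh1a2, Zeb2, Mecom and Bmp5) were nearest to 1 member each, which is 0.829% (0.355 to 1.93) of the members. All iHoxc9 domains had 0.322%, all 3 induced lists 0.477% and iHoxc9 alone 0 of 1598 (upper bound 0.240%). The numbers are small, and they are given as counts.

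Aldh1a2 encodes the enzyme that makes RA in limb-level motor neurons. Its member (chr9:71217344-71217775) lay in an intron 1.77 kb from the TSS and was 432 bp wide in iHoxc9 and 601 bp in iHoxc10, with 357 bp shared. The nearest domains of the excluding lists were 750 bp away in iHoxc6, 826 bp in no Dox, 1126 bp in EBs and 1296 bp in progenitors, all on the side of the TSS. There, the EB, progenitor, no Dox and iHoxc6 lists held domains of 980, 812, 701 and 747 bp over the start of the gene, whereas iHoxc10 held 292 bp there and iHoxc9 held only 64 bp, just upstream of it. The member held no ATAAA in its centre.

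Foxp1, the transcription factor that defines the limb-innervating lateral motor column, had its member in an intron (chr6:99019839-99020061, 223 bp in iHoxc9 and 195 bp in iHoxc10). A 42 bp iHoxc6 domain lay 288 bp away, and the EB, progenitor and no Dox lists held their nearest domains 4746 to 7795 bp away. A second domain shared by iHoxc9 (193 bp) and iHoxc10 (192 bp) lay beside it, over that 42 bp iHoxc6 domain, and so was no member. Bmp5, which encodes a bone morphogenetic protein, had its member in an intron 6.45 kb from the TSS (309 bp and 396 bp), with an EB domain 1711 bp away and none of progenitors, no Dox or iHoxc6 nearer than 14007 bp. The Mecom (339 and 351 bp) and Zeb2 (267 and 272 bp) members, near zinc finger factor genes, were of nearly equal width in both lists. At Zeb2, domains of all 4 excluding lists lay 445 to 732 bp away, and at Mecom the nearest was 26895 bp away.

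Of the 39 Hox genes, Hoxc6 alone was nearest to a member (chr15:102998064-102998257, 194 bp in iHoxc9 and 127 bp in iHoxc10). Its centre lay 96 bp upstream of the annotated Hoxc6 TSS, and the domain overlapped the annotated bodies of Hoxc5 and Hoxc6. A 37 bp iHoxc6 domain lay 172 bp away. Hox genes were nearest to 0.166% of the members, 0.129% of all iHoxc9 domains, 0% of iHoxc9 alone and 0.477% of all 3 induced lists. Among the 9 genes of the TALE cofactors that bind DNA with Hox proteins, Meis2 and Pbx3 had 1 member each. These genes were nearest to 0.332% of the members, 0.222% of all iHoxc9 domains, 0.250% of iHoxc9 alone and 0.955% of all 3 induced lists. The Meis2 member (chr2:115943131-115943437) was 307 bp wide in iHoxc9 and 298 bp in iHoxc10, and no domain of an excluding list lay nearer than 19136 bp. The Pbx3 member (156 and 138 bp) was in an intron 8.01 kb from the TSS and held 3 ATAAA matches and 1 TGATTTAT match.

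**Figure D5:**
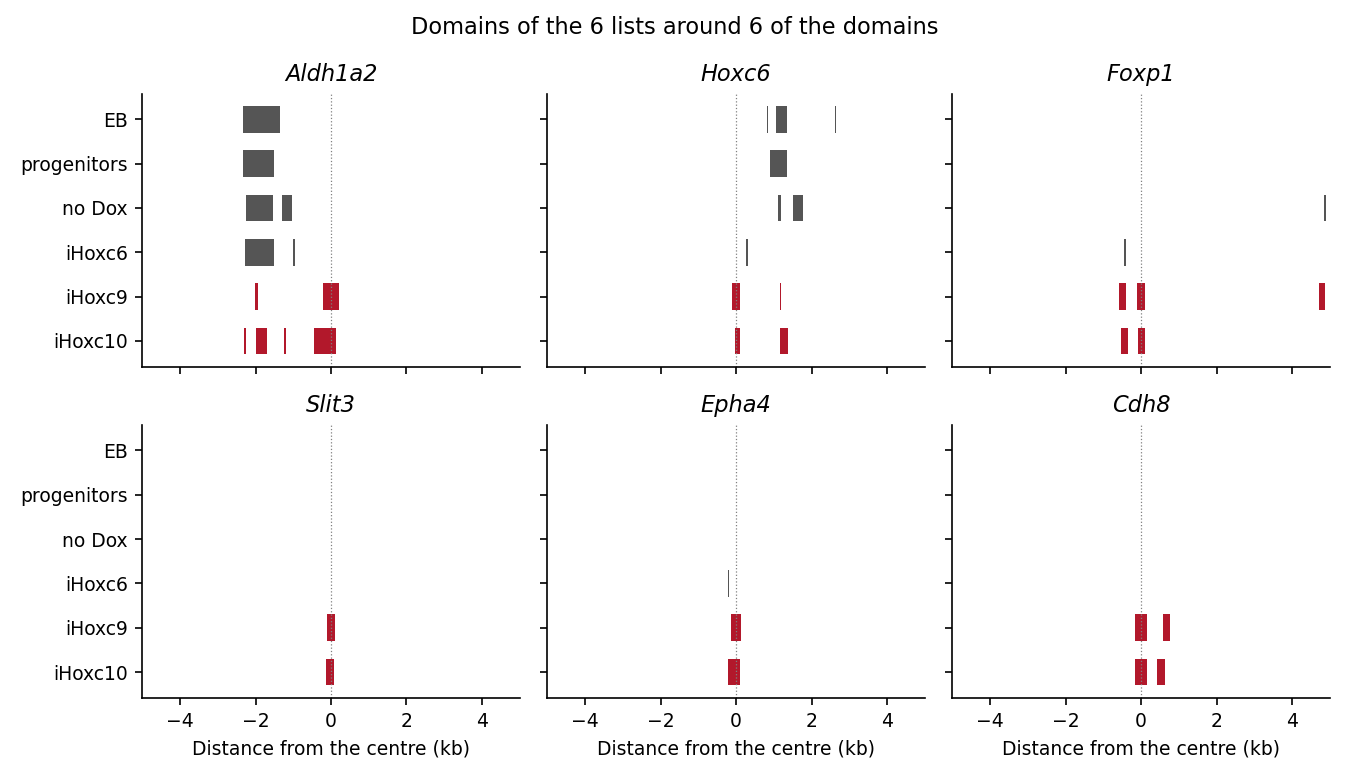
Domains of the 6 lists (rows) within 5 kb of the centre of 6 of the 603 domains, by distance from that centre (horizontal axis, kb, plus strand to the right), near Aldh1a2, Hoxc6, Foxp1, Slit3, Epha4 and Cdh8. Red bars are iHoxc9 and iHoxc10 domains and grey bars those of the other lists. At Slit3 no other list holds a domain in view, and at Epha4 a 31 bp iHoxc6 domain lies just beside the member.

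The members were spread over 540 nearest genes, 487 of which had 1 member. Only 8 genes were nearest to 3 or more: Cdh8 and Pcdh20 with 4, and Dio2, Epha7, Fam135b, Gm10283, Marcks and Slit3 with 3. Most of these lie beside long stretches without another protein-coding TSS: the Pcdh20 members were 977 to 2342 kb away and the Cdh8 members 205 to 1521 kb away. The Gm10283 and Slit3 members were closer, from 64 to 187 kb and from 83 to 213 kb away. All 3 Slit3 members lay in its introns, as did 2 of the 3 Gm10283 members in theirs. For Slit3, none of its 5 nearest iHoxc9 domains was of the iHoxc9-alone or all-3 sets. The iHoxc9-alone set had 6 domains nearest to Cdh8, 4 to Pcdh20, 3 to Fam135b, 2 to Gm10283, 1 each to Epha7 and Marcks, and 0 to Dio2. All iHoxc9 domains nearest to these genes numbered 20, 19, 16, 7, 20, 18 and 14 in that order. When the host gene of intronic members was counted, Slc25a21, Gm20388 and Slit3 had 3 each, and Gm20388 overlaps other genes, among them Gse1. The Dio2 members (160, 171 and 349 bp in iHoxc9) lay in introns of other genes, 2 of them in Nrxn3, which encodes a synaptic neurexin. The Marcks members, near the gene of a protein kinase C substrate, were 167 to 238 bp wide and 27.5 to 725 kb from its TSS. Of the Fam135b members, 1 lay in an exon of that gene, 1.3 kb from the TSS.

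Slit3 encodes a secreted ligand of Robo receptors. Its members were 314, 447 and 206 bp wide in iHoxc9 and 438, 669 and 219 bp in iHoxc10, so each was wider in iHoxc10. The first had a progenitor domain 162 bp and an iHoxc6 domain 116 bp away. The other 2 had no excluding domain nearer than 6142 bp.

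Axon guidance genes were nearest to 18 members (2.99%, 1.90 to 4.67), through 11 of the 44 genes on the list. All iHoxc9 domains had 1.08%, iHoxc9 alone 1.19% and all 3 induced lists 1.67%. Epha7, an ephrin receptor gene, had 3 members of 243 to 462 bp in iHoxc9 and 120 to 283 bp in iHoxc10, each narrower in iHoxc10. Epha5 had 2 members in introns, one of them 590 bp wide and wholly inside an 892 bp iHoxc10 domain, 4.41 kb from the TSS. Epha4 and Robo1 had 2 members each. At Epha4 one iHoxc10 domain (323 bp) also met a 31 bp iHoxc6 domain, which lay 50 bp from the 261 bp iHoxc9 domain.

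Adhesion genes were nearest to 21 members (3.48%, 2.29 to 5.27), through 15 of 48 genes, against 1.58% of all iHoxc9 domains, 5.51% of iHoxc9 alone and 3.58% of all 3. The Cdh8 members, near a classical cadherin gene, were 180 to 333 bp wide in iHoxc9 and 41 to 312 bp in iHoxc10, and a pair of them lay 419 bp apart. The other lists had few members. There were 2 each (0.332%, 0.0910 to 1.20) for SoxB and SoxC genes (both near Sox11), RA response (both near Nr2f1), neural tube factors (both near Irx3), and mesoderm and endoderm genes (Gata6 and Sox7). All iHoxc9 domains had 0.161%, 0.319%, 0.328% and 0.126% in that order. There was 1 each (0.166%, 0.0293 to 0.933) for motor neuron identity (Nefm), Hedgehog (Gli2), interneuron factors (Barhl1) and pluripotency (Tfcp2l1). All iHoxc9 domains had 0.264%, 0.248%, 0.296% and 0.0805% in that order. There were 0 (upper bound 0.633%) for proneural and Notch genes and for caudal and axial timing genes, against 0.399% and 0.0901% of all iHoxc9 domains. Each of these shares of all iHoxc9 domains lay within the members' interval. In all, 59 members (9.78%, 7.66 to 12.4) were nearest to a listed gene, against 5.59% of all iHoxc9 domains and 8.64% of iHoxc9 alone, whose distances to a TSS are nearer to those of the members.

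Of 583 gaps between neighbours on a chromosome, the median was 2465 kb, 7 were under 10 kb and 12 under 50 kb. By chromosome they made up from 0% of the 35 iHoxc9 domains on Y and 0.681% (0.291 to 1.58) of the 734 on X to 3.18% (2.38 to 4.25) of the 1382 on chromosome 12, against 1.94% in all.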

How the data were processed

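Nextera ATAC-seq reads had been aligned by the authors to mm10 with Bowtie2 2.2.2. They called domains with DomainFinder on both samples of a group together. The submitters' processing notes also name Picard 2.8.2. The deposited values are start and end coordinates in bp. Other settings of the caller are not given in the sources used here, and the no Dox list has 6 columns where the others have 3. The file name of that list gives a p-value threshold and a day that its label does not, and whether its calling differed is not known. For comparisons at equal base composition, chosen after seeing the data, shares of other sets were weighted to the members' shares in 4 GC classes, with a normal interval of the difference.

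Starts were read as in BED and printed counting from 1, so positions are uncertain by 1 bp. Genes were those of GENCODE M21 (GRCm38) and sequence that of GRCm38.p6. A promoter was a protein-coding TSS ± 1 kb, and a domain was placed there if it shared at least 1 bp with that stretch. Strings were counted on both strands in the central 200 bp and in windows 5 kb away. Alternatives in width, overlap, excluding lists, windows and annotation are given in the closing section. Overlap, gap, string and interval code was tested on simulated data (123 checks, 0 differed). Python 3.11.15, NumPy 2.4.6, SciPy 1.17.1, pandas 2.3.3, Matplotlib 3.10.9 and samtools 1.23.1 were used.

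The regions and gene lists were chosen with earlier results of these data known. Regions named were the 5 widest, the 5 with most ATAAA (ties by width) and the 3 on each side of the width limit, of which 1 is not reported here. Genes named were those nearest to 3 or more members, up to 15 listed genes with the most members, and hosts of 3 or more intronic members. The further listed genes, those at the 6 promoter members, the printed windows, CGTAAA and AGGTCA, and the set at least 150 bp wide in both lists were chosen after their values were seen.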

Additional observations from a re-analysis of the deposited data

How the results depend on the processing

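The number of members depended most on what counted as a domain. From 603 it moved to 356 and 66 with minimum widths of 250 and 500 bp, to 331 when at least 50% of the iHoxc9 domain had to be covered, to 357 when the iHoxc10 domain also had to be 150 bp wide, to 1022 without the iHoxc6 list, and to 1364 when the excluding lists held only domains of 150 bp or more. With a minimum width of 100 bp, without the EB or the no Dox list, with a margin of 500 bp or counted in the iHoxc10 list, it lay between 508 and 824. The share of members with ATAAA (78.6%) was 60.7% in the central 100 bp, 84.7% over the whole domain and 82.0% with a minimum of 250 bp. The density ratio to windows 5 kb away (1.64) was 2.03 with windows between 39.5% and 47.8% GC, 5.91 for TTTATGG and 6.12 for CGTAAA, a string chosen after seeing the data. The share at promoters (0.995%) was 4.15% within 5 kb and 2.65% with every annotated gene, and the share in gene bodies (43.3%) was 49.8% with every annotated gene. The 8 genes nearest to 3 or more members became 0 with the TSS of every annotated gene and 3 with host genes. The other 10 alternatives left values within 1.5 times for counts or within the 95% interval for shares and ratios.

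No paired analysis was possible because 1 list per group was made from both replicates. For the same reason no replicate was left out. Read depth is unknown, and its part in which domains were listed was not tested. The iHoxc9 and iHoxc10 lists were the shortest, and the lines had no uninduced control of their own here.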

Other observations

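Of 70 iHoxc9 domains of at least 150 bp outside chromosomes 1 to 19, X and Y, 0 met the rule. Domains with at least 50% of the central 200 bp soft-masked as repeats numbered 13 of 603 (2.16%, 1.26 to 3.65), against 130 (21.6%, 18.5 to 25.0) for the mean of both windows 5 kb away. In iHoxc9 alone these shares were 1.56% and 25.1%, and in all 3 induced lists 1.91% and 19.1%.

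Of the 12 neighbouring pairs of members under 50 kb apart, each had the same nearest protein-coding gene on both sides. The closest were 205 bp apart near Gm10283, 229 bp near Sec61b, 419 bp near Cdh8 and 485 bp near Ddx1.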
